A study of Homo sapiens with 6 samples.

Results

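The genes described here are 42 genes of the antiviral interferon pathway: 6 for RNA sensors and their adaptor, 5 receptor and kinase genes, 5 transcription factors and 26 interferon-stimulated genes. They were taken by symbol from a fixed list of 43 symbols, in which DDX58 and RIGI name the same gene, out of 26490 genes in the count table. All 42 were found, RIG-I under its earlier symbol DDX58. SW403, an established cell line from a human colon adenocarcinoma, was profiled by RNA-seq as 3 libraries with genotype WT, called control, and 3 with genotype IRS2_knockdown. All cells grew for 24 h in DMEM with 10% fetal bovine serum and received no treatment. The cultures were seeded in triplicate and are titled biological replicates. The sample descriptions carry NS for control and IRS2KO for knockdown. How IRS2 was lowered, what the control cells carried and whether each group was 1 line or several are not given in the labels. An effect of the knockdown reagent and an effect of less IRS2 therefore cannot be told apart. P-values measure the spread between these cultures.

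RIG-I (DDX58) and MDA5 (IFIH1) are cytosolic helicases that bind double-stranded RNA and signal through MAVS on mitochondria, while TLR3 senses such RNA in endosomes. These routes activate IRF3, IRF7 and NF-kB and switch on interferon genes. Secreted interferon binds IFNAR1 and IFNAR2, and the kinases JAK1 and TYK2 then activate a complex with STAT2 and IRF9 that drives interferon-stimulated genes through a promoter element called ISRE. Knockdown reagents made of, or producing, double-stranded RNA can be seen by the same sensors, which is the question put to these genes.

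The libraries held 11816973 to 12585013 counts in control and 14329348 to 18114656 in knockdown, so every knockdown library was deeper. IRS2 itself had 408, 437 and 381 counts in control and 186, 210 and 216 in knockdown, a drop from 33.2 ± 1.42 to 12.4 ± 0.535 CPM (counts scaled to a common library total; SD, n = 3 each). In edgeR this was a log2 fold change of -1.39 ± 0.07 (SE; adjusted p 3.12e-11). Of 10 colon epithelial markers, KRT8, KRT18, EPCAM and CDX2 were well expressed and VIL1 less so, CDX1 and KRT20 had no read, and LGALS4, CDH17 and GPA33 were near 0 and too low to test. The 10 leukocyte markers summed to at most 1.52 CPM in any library, and CD3D, MS4A1 and TYROBP had no read. Fibroblast and endothelial markers, with PECAM1 and CDH5 at 0, summed to 11.9 to 31.8 CPM in control and 8.91 to 11.5 CPM in knockdown. Most of that excess was collagen in control replicate 1 (193 counts of COL1A1 and 86 of COL1A2), and its part in the results below was not tested. Without that library 14 of 38 members (36.8%) passed the edgeR threshold, 10 higher and 4 lower, against 32.6% of all genes tested in that fit (16.4% higher and 16.3% lower).

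Genes of the interferon pathway changed in both directions, more of them up than down. Nearly all, like most tested genes, changed by less than 2-fold. Of the 42 members, 38 had enough counts to be tested, and 17 (44.7%) had an edgeR adjusted p under 0.05, against 38.5% of all 13832 tested genes. Among the 17, 13 were higher in knockdown (34.2% of those tested, background 19.3%) and 4 were lower (10.5%, background 19.2%). The values of the groups did not overlap for 19 of the 38, against 48.4% of all tested genes. The median log2 fold change was 0.13 for the tested members and -0.00391 for all tested genes. DESeq2's Wald test called 11 of the 38 (28.9%), 8 of them higher and 3 lower, against 22.7% of its 15710 genes with an adjusted p (12.2% higher and 10.4% lower). IFIH1, TLR3 and MX1 passed the low-count filter only through the knockdown libraries, so a difference was built into their being tested. IFIH1 is 1 of the 13 counted as higher. IFIT1 reached the minimum of that filter in 3 control and 2 knockdown libraries, and IFI27 in 1 control and 2 knockdown libraries. Neither was called. In these bulk samples, a change in the share of cells expressing a gene and a change in RNA per cell cannot be told apart.

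Only USP18, which fell, changed at least 2-fold among the 38, against 689 of all 13832 tested genes. With IFIH1 (1.80-fold) set aside because of the filter, the largest rises past the threshold were those of IFI35 (1.75-fold), IFIT3 (1.66-fold) and IFI6 (1.54-fold). For 32 of the 38 the upper end of the 95% interval of the fold change lay below a 2-fold rise. The same held for 13447 of all 13832 tested genes, a larger share. Among the 38, the highest upper end, 2.92-fold, belonged to MX1, a gene with 6 to 34 counts per library. The share called differed with abundance. Of all genes with a mean under 20 counts, the lowest of 5 classes of mean count, 31.1% were called, and 1 of 5 members. In the class of 20 to 50 counts 26.8% of all genes were called, and 3 of 5 members. In the middle class 33.3% were called, and 3 of 10 members. In the class just below the most abundant 37.8% were called, and 7 of 11 members. In the most abundant class 49.7% were called, and 3 of 7 members.

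**Figure D1:**
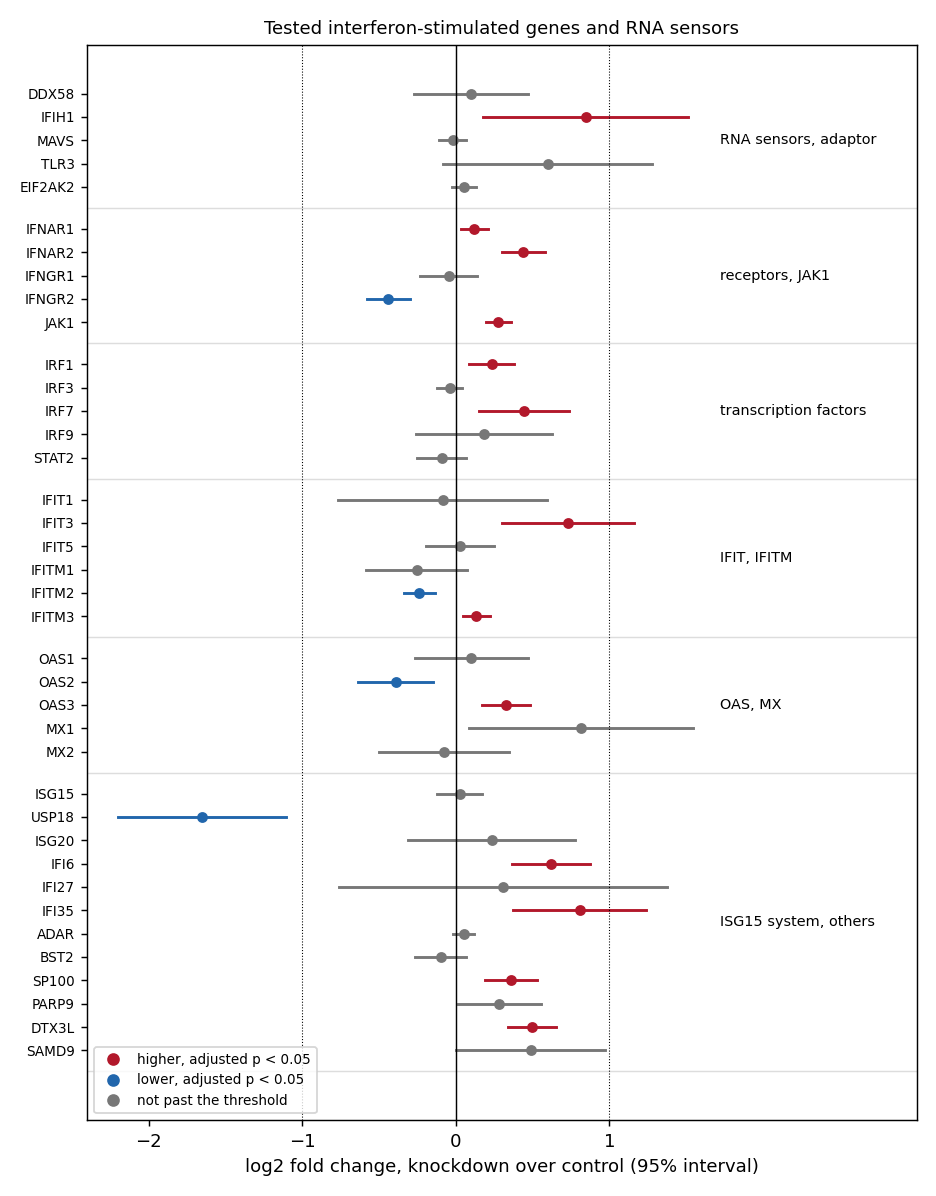
Log2 fold change of knockdown over control (x axis, points) with its 95% interval (lines) for the 38 tested genes, grouped by role, with dotted lines at a 2-fold change in either direction. Every role group has points on both sides of 0, and USP18 at -1.65 is the single gene whose interval lies wholly beyond a 2-fold change.

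The sensors were examined one by one. DDX58, the gene of RIG-I, had 3.81, 5.73 and 3.89 CPM in control and 5.37, 4.57 and 4.25 CPM in knockdown. The groups overlapped. Its log2 fold change of 0.10 ± 0.18 (SE) had an edgeR adjusted p of 0.709 and a 95% interval of 0.826-fold to 1.38-fold. Without control replicate 1 its sign changed (-0.0111).

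IFIH1, the gene of MDA5, was the 1 sensor past the threshold, and it was scarce. It had 6, 12 and 12 counts in control and 22, 21 and 28 in the deeper knockdown libraries, or 0.477, 0.955 and 1.02 CPM against 1.54, 1.23 and 1.55 CPM. Every knockdown library lay above every control library. The log2 fold change was 0.84 ± 0.32 (SE; edgeR adjusted p 0.0433; 95% interval 1.13-fold to 2.86-fold). It passed the low-count filter through the knockdown group, since 2 control libraries reached the minimum of 0.743 CPM. The call did not hold in DESeq2 (adjusted p 0.235), with scaling by library size alone (0.0512), with the replicate number as a block (0.0692, and 0.0586 with a length and GC correction added), or when control replicate 1 (0.207), control replicate 2 (0.0588), knockdown replicate 1 (0.0995), knockdown replicate 2 (0.0536) or knockdown replicate 3 (0.114) was left out of edgeR.

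TLR3, the endosomal sensor, had 0.636, 0.716 and 0.931 CPM in control and 0.907, 1.29 and 1.16 CPM in knockdown, with knockdown replicate 1 inside the control range. Its log2 fold change was 0.60 ± 0.32 (SE; edgeR adjusted p 0.159), and it too met the minimum in all knockdown libraries but in 1 control library. DHX58, the gene of LGP2, which modulates the other helicases, was not tested: it had 1, 3 and 1 counts in control and 2, 1 and 4 in knockdown.

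The abundant sensor and adaptor genes differed little between groups. EIF2AK2 encodes PKR, the kinase that stops translation when it binds double-stranded RNA and is itself induced by interferon. It had 110, 115 and 114 CPM in control and 116, 114 and 114 CPM in knockdown, and the groups overlapped (log2 fold change 0.05 ± 0.04 SE, edgeR adjusted p 0.285). Its 95% interval ran from 0.983-fold to 1.10-fold. With each library corrected for transcript length and GC content it passed the threshold at a log2 fold change of 0.09 (edgeR adjusted p 0.0338).

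MAVS had 125, 118 and 132 CPM in control and 124, 117 and 121 CPM in knockdown (log2 fold change -0.02 ± 0.04 SE, edgeR adjusted p 0.740), and its interval ran from 0.928-fold to 1.05-fold. Its sign turned without control replicate 3 (0.02) or knockdown replicate 2 (0.000622). Of the genes next to these sensors in the pathway, 15 of 22 listed signalling genes were tested, 4 higher and 4 lower. Each direction made up 26.7% of the tested, against 19.3% higher and 19.2% lower among all tested genes. RNF135, the ubiquitin ligase Riplet that activates RIG-I, had 34, 25 and 33 counts in control and 12, 13 and 12 in knockdown, and fell (log2 fold change -1.69, edgeR adjusted p 6.17e-05), after passing the low-count filter through the control group. ZCCHC3, a co-receptor of the RIG-I-like helicases, fell from 51.4 ± 1.27 to 34.3 ± 2.24 CPM (edgeR adjusted p 2.12e-07), and TRAF6 fell by 0.26 on the log2 scale (edgeR adjusted p 0.0133). TRAF3 (log2 fold change 0.17), TICAM1, the adaptor of TLR3 (0.36), and IKBKE (0.25) rose, with edgeR adjusted p-values of 0.00775, 0.0133 and 0.0167. The kinase gene TBK1 did not pass (log2 fold change -0.04, edgeR adjusted p 0.720). This list's count of 8 called genes fell to 5 without control replicate 1 and to 5 without control replicate 3. The count over the whole table fell from 5329 to 4593 and to 4909 in those fits.

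**Figure D2:**
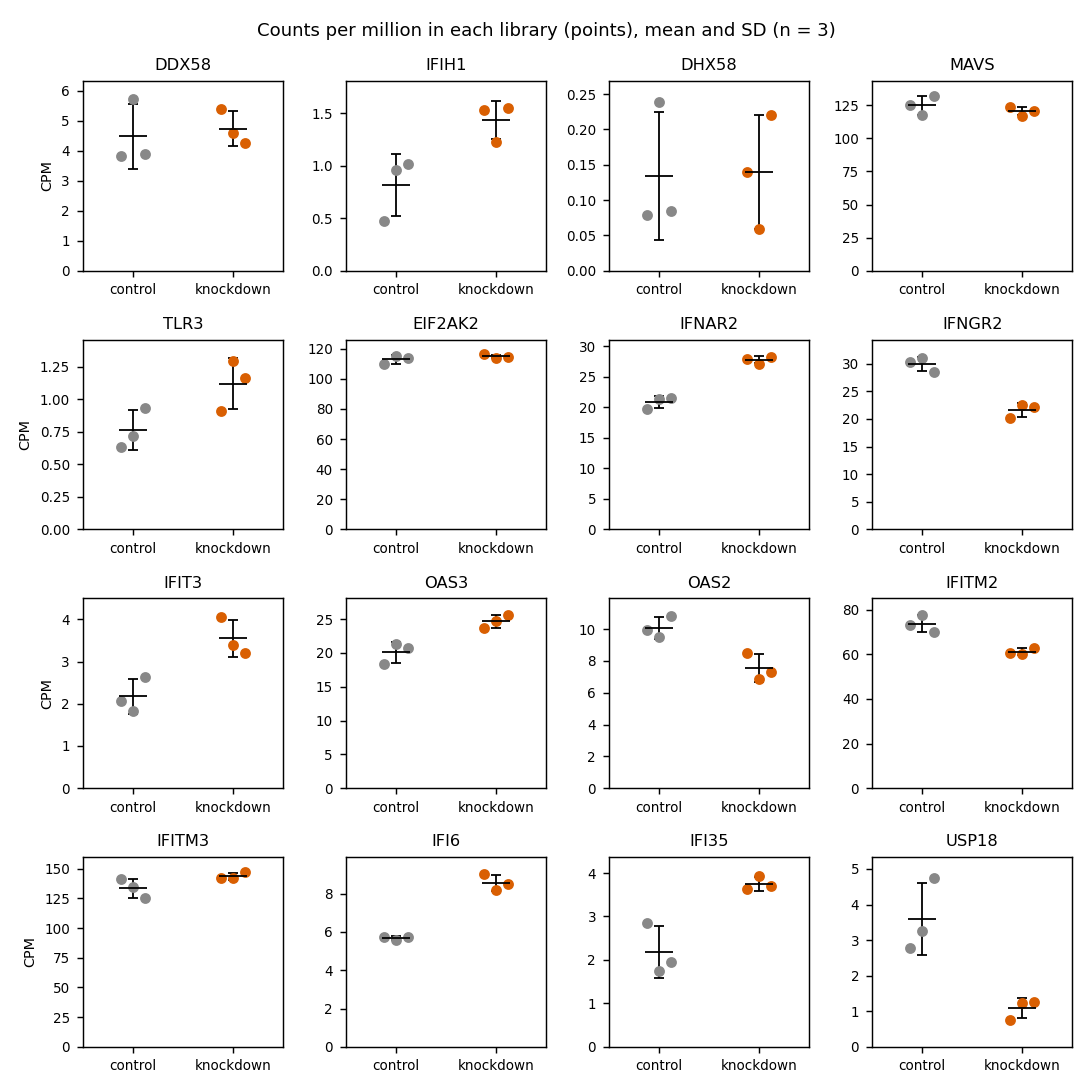
CPM (y axes, from 0) of 16 genes in each of the 3 control and 3 knockdown libraries (points), with the mean and SD. DDX58, MAVS, EIF2AK2 and DHX58 overlap between groups, while USP18, IFNGR2, OAS2 and IFITM2 are lower and IFI6, IFI35, IFIT3 and IFNAR2 higher in every knockdown library.

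Interferon transcripts were absent from the counts or scarce. Of 21 interferon genes, 18 had no read in any library, which allows at most 0.166 to 0.254 CPM per library (3 counts). IFNB1 had 1 count in control and 1 in knockdown over all libraries, IFNA13 had 0 and 1, and IFNE had 8 and 5. These limits cover counting error only, and PCR copies of a molecule are not independent.

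The receptor genes moved apart from each other. IFNAR2, the long-tailed chain of the type I receptor, had 19.8, 21.4 and 21.5 CPM in control and 27.8, 27.1 and 28.3 CPM in knockdown, without overlap. It rose 1.36-fold (log2 fold change 0.44 ± 0.07 SE, edgeR adjusted p 3.13e-05). IFNGR2, the signalling chain of the interferon gamma receptor, had 30.4, 31.0 and 28.5 CPM in control and 20.2, 22.4 and 22.1 CPM in knockdown, also without overlap. It fell 1.36-fold (log2 fold change -0.44 ± 0.07 SE, edgeR adjusted p 4.17e-05), so the changes of these chains were opposite and of like size.

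JAK1, the kinase bound by both receptors, had 111, 105 and 115 CPM in control and 130, 134 and 128 CPM in knockdown. All knockdown values were higher, and the log2 fold change was 0.28 ± 0.04 (SE; edgeR adjusted p 1.49e-05). IFNAR1, the other type I chain, had 79.2, 80.0 and 84.5 CPM in control and 87.7, 87.0 and 84.8 CPM in knockdown, barely apart (log2 fold change 0.12 ± 0.04 SE, edgeR adjusted p 0.0271). That call was lost in DESeq2 (adjusted p 0.105), under upper-quartile factors (0.0621), under library size alone (0.0981), with the replicate block (0.0575), and without control replicate 1 (0.102), control replicate 2 (0.0811), knockdown replicate 1 (0.0691) or knockdown replicate 2 (0.0834). IFNGR1, the ligand-binding chain of the gamma receptor, overlapped between groups (log2 fold change -0.05, edgeR adjusted p 0.716). It changed sign without control replicate 1 (0.04) or knockdown replicate 1 (0.00688).

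Among the transcription factors, IRF7 and IRF1 rose and IRF3, IRF9 and STAT2 did not pass. IRF7, the factor that amplifies interferon production, had 4.45, 4.94 and 5.59 CPM in control and 6.98, 6.15 and 6.79 CPM in knockdown, without overlap (log2 fold change 0.44 ± 0.14 SE, edgeR adjusted p 0.0175). It did not pass in DESeq2 (adjusted p 0.123) or in edgeR without control replicate 1 (0.0906) or knockdown replicate 1 (0.0536). IRF1, an activator induced by interferon gamma and NF-kB, had 35.4, 32.7 and 31.0 CPM in control and 34.2, 41.6 and 37.9 CPM in knockdown (log2 fold change 0.23 ± 0.07 SE, edgeR adjusted p 0.0135). Its groups overlapped through control replicate 1 and knockdown replicate 1. The IRF1 call was lost without control replicate 3 (edgeR adjusted p 0.0625) or knockdown replicate 2 (0.106), and in DESeq2 (0.0576).

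IRF3, the factor phosphorylated downstream of the sensors and regulated mainly as a protein, had 131, 123 and 122 CPM in control and 118, 120 and 121 CPM in knockdown (log2 fold change -0.04, edgeR adjusted p 0.457). STAT2 had a log2 fold change of -0.09 (edgeR adjusted p 0.370). IRF9, the DNA-binding part of the STAT complex, varied most among the knockdown libraries, from 3.14 CPM in replicate 1 to 6.74 CPM in replicate 2, and its log2 fold change of 0.18 turned to -0.12 without knockdown replicate 2.

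Of 13 further receptor-signalling genes, 3 were higher at an edgeR adjusted p under 0.05 and the other 10 did not pass. The 3 were 23.1% of the list, against 19.3% higher among all tested genes. Genes called in either direction were thus also 23.1%, against 38.5% of all tested genes, and none was lower, against 19.2%. The phosphatase genes PTPN6 and PTPN2, which restrain JAK signalling, had log2 fold changes of 0.44 and 0.20 (edgeR adjusted p 0.000136 and 0.00217). The interferon-induced feedback genes SOCS1 and SOCS3 did not pass (log2 fold changes 0.20 and -0.39, edgeR adjusted p 0.750 and 0.238).

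The ISRE was looked for in promoters, because it is the element through which the pathway drives interferon-stimulated genes. RefSeq promoter windows (GRCh38.p14, 250 bases before to 50 after the start) were matched for 32 of the 42 genes. Those not matched were DHX58, IFNAR2, IRF3, IRF7, IFIT2, IFITM2, OAS2, OASL, MX2 and USP18. The ISRE core, searched as the letters GAAA, any 2 bases and GAAA on either strand, was found in 18 of the 32 (56.2%) and in 3.57% of 35116 promoters of that length. It was found in 6 of the 11 matched genes that were higher and in 11 of the 19 that were tested and not called. The GAS core TTCNNNGAA, which reads the same on both strands, was found in 8 of the 32 and in 7.66% of all promoters. These are letter matches, not measured binding.

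The windows below are from genes that rose and, after them, from genes that did not pass, and are shown because the core is present in both. Each is written 5′ to 3′ on the strand of its gene, and capitals mark a core. The core reads TTTC, any 2 bases and TTTC where it lies on the other strand. The ISG15 window holds another core, at chr1:1013384-1013393, which overlaps the marked core and is not all in capitals.
IFI6 (rose), chr1:27672288-27672317, minus strand: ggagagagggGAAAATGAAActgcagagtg
IFIT3 (rose), chr10:89327865-89327894, plus strand: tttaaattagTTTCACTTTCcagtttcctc
IFITM3 (rose), chr11:320876-320905, minus strand: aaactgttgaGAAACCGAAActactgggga
OAS3 (rose), chr12:112938452-112938481, plus strand: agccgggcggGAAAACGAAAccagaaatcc
DTX3L (rose), chr3:122564322-122564351, plus strand: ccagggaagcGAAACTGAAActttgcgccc
ISG15 (did not pass), chr1:1013380-1013409, plus strand: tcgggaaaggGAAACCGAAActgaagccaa
IFIT1 (did not pass), chr10:89392497-89392526, plus strand: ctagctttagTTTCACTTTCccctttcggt
IFITM1 (did not pass), chr11:314024-314053, plus strand: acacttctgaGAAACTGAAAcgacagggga
MX1 (did not pass), chr21:41420559-41420588, plus strand: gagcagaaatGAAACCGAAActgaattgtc
EIF2AK2 (did not pass), chr2:37156967-37156996, minus strand: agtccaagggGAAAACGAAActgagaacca
ISG15, IFIT1 and MX1 are common readouts of an interferon response. The core is thus printed letter for letter in genes on both sides of the threshold, for example with the letters GAAACCGAAA in IFITM3, which rose slightly, and in ISG15 and MX1.

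ISG15, a ubiquitin-like protein joined to other proteins after interferon, did not pass. It had 23.2, 21.5 and 21.0 CPM in control and 22.1, 21.2 and 22.2 CPM in knockdown, with overlap (log2 fold change 0.03 ± 0.07 SE, edgeR adjusted p 0.806). The interval of its fold change ran from 0.920-fold to 1.13-fold. Its sign turned under scaling by library size alone (-0.00509) and without control replicate 3 (-0.00141).

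USP18, the protease that removes ISG15 and blocks signalling at IFNAR2, fell. It had 35, 41 and 56 counts in control and 11, 21 and 23 in knockdown, or 2.78, 3.26 and 4.74 CPM against 0.768, 1.23 and 1.27 CPM, with no overlap. The log2 fold change was -1.65 ± 0.26 (SE), a 3.15-fold fall with a 95% interval from 0.217-fold to 0.465-fold of control (edgeR adjusted p 5.49e-05). USP18 lies on chromosome 22 (GRCh37, 18632885 to 18660164) and has a near-identical copy, USP41, which had 13 counts over the control and 3 over the knockdown libraries. How reads shared by such copies were counted is not given in the sources used here.

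Of the other ISG15 enzymes, HERC5, the ligase that attaches ISG15, had 48, 60 and 66 counts in control and 14, 22 and 28 in knockdown, and fell (log2 fold change -1.83, edgeR adjusted p 2.91e-06). UBE2L6, the conjugating enzyme, was at 1.38 and 1.52 CPM and did not pass (edgeR adjusted p 0.652). UBA7, the activating enzyme, was at 0.376 and 0.353 CPM and was too low to test.

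Neighbouring genes of the same family were set side by side. In the IFIT cluster (chromosome 10, GRCh37, from 91043451 at IFIT2 to 91181362 at IFIT5), whose proteins bind foreign RNA ends, IFIT3 had 2.07, 1.83 and 2.62 CPM in control and 4.05, 3.40 and 3.20 CPM in knockdown. It rose without overlap (log2 fold change 0.73 ± 0.21 SE, edgeR adjusted p 0.00816; DESeq2 adjusted p 0.0682). IFIT1, a strongly inducible member, had 10, 16 and 13 counts in control and 17, 18 and 13 in knockdown (log2 fold change -0.09 ± 0.32 SE, edgeR adjusted p 0.860). Its 95% interval ran from 0.588-fold to 1.51-fold, and changes within that range cannot be told apart here.

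IFIT5 did not pass either, with 9.54, 9.47 and 10.9 CPM in control and 9.35, 9.79 and 10.6 CPM in knockdown (log2 fold change 0.03, edgeR adjusted p 0.862). IFIT2 had 2, 3 and 0 counts in control and 2, 5 and 2 in knockdown and was not tested. The signs of IFIT1 and IFIT5 changed in some fits, for IFIT1 without control replicate 2 (0.08) or knockdown replicate 3 (0.11), and for IFIT5 under library size alone (-0.00307) and without control replicate 1 (-0.00558), control replicate 2 (-0.000423) or knockdown replicate 3 (-0.03). The count ratio of IFIT3 to IFIT5 within a library, which no scaling factor can move, was 0.217, 0.193 and 0.240 in control and 0.433, 0.347 and 0.302 in knockdown.

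The IFITM genes (chromosome 11, GRCh37, from 303655 at IFITM2 to 329475 at IFITM3) encode small membrane proteins that block virus entry. IFITM3 was the most abundant of all members per transcript length, and rose slightly, from 141, 134 and 125 CPM to 142, 142 and 147 CPM (log2 fold change 0.13 ± 0.04 SE, edgeR adjusted p 0.0167). That call was lost under library size alone (edgeR adjusted p 0.0563) and without control replicate 3 (0.0979). IFITM2 fell from 73.0, 77.8 and 70.1 CPM to 60.5, 60.1 and 62.9 CPM (log2 fold change -0.24 ± 0.05 SE, edgeR adjusted p 0.000701), with no overlap between groups. IFITM1 was lower without overlap, with 5.32, 5.17 and 4.32 CPM in control and 3.91, 4.04 and 4.20 CPM in knockdown, but did not pass (log2 fold change -0.26 ± 0.16 SE, edgeR adjusted p 0.214). The count ratio of IFITM2 to IFITM3 was 0.517, 0.580 and 0.559 in control and 0.426, 0.423 and 0.429 in knockdown, so the shift between them was seen in every library. These genes are similar in sequence, and reads may be split between them.

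In the OAS cluster (chromosome 12, GRCh37, from 113343661 at OAS1 to 113449528 at OAS2), whose enzymes make the messenger that activates RNase L, the neighbours OAS3 and OAS2 moved in opposite directions. OAS3 had 18.4, 21.3 and 20.6 CPM in control and 23.7, 24.7 and 25.6 CPM in knockdown, and rose (log2 fold change 0.33 ± 0.07 SE, edgeR adjusted p 0.00153). OAS2 had 9.93, 9.47 and 10.8 CPM in control and 8.51, 6.86 and 7.29 CPM in knockdown, and fell (log2 fold change -0.39 ± 0.12 SE, edgeR adjusted p 0.0113). OAS2 did not pass in DESeq2 (adjusted p 0.107) or without control replicate 3 (0.0536) or knockdown replicate 2 (0.0612).

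OAS1 overlapped between groups (log2 fold change 0.10 ± 0.18 SE, edgeR adjusted p 0.696) and changed sign when every library was thinned to the smallest total (-0.03). OASL, elsewhere on that chromosome, had 1, 2 and 0 counts in control and 3, 3 and 1 in knockdown and was not tested. The count ratio of OAS3 to OAS2 was 1.85, 2.25 and 1.91 in control and 2.78, 3.61 and 3.51 in knockdown.

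**Figure D3:**
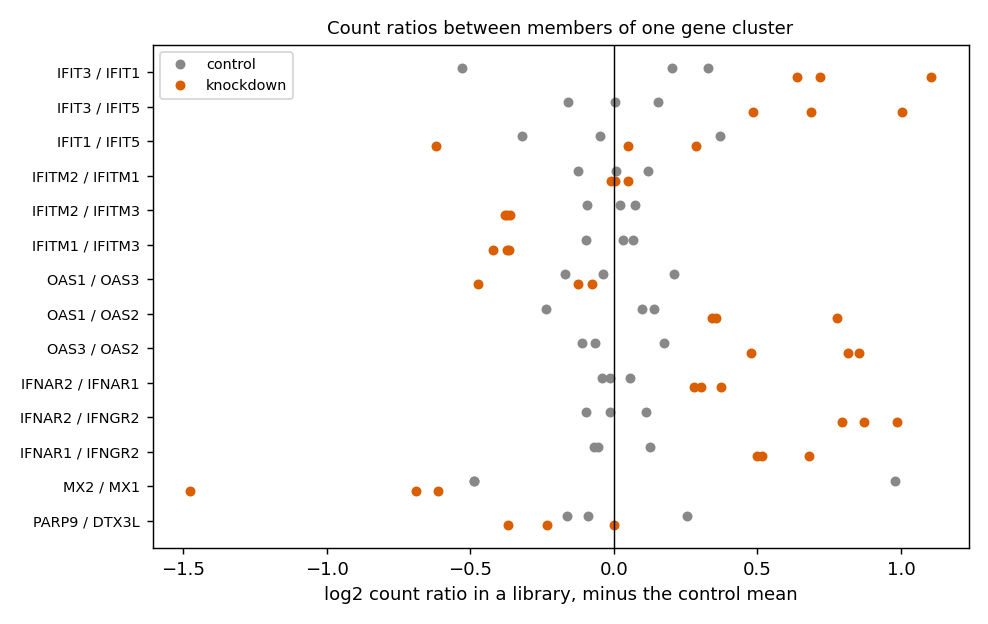
Log2 ratio of the counts of 2 genes of the same cluster in each library, minus the mean of the control libraries (x axis), for 14 pairs in 6 clusters, with control in grey and knockdown in orange. IFITM2 to IFITM3 lies lower and OAS3 to OAS2 and IFNAR2 to IFNGR2 lie higher in every knockdown library.

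Ratios of this kind were computed for all 14 pairs of tested members within the IFIT, IFITM, OAS, interferon receptor and MX clusters and for PARP9 with DTX3L, a grouping made after the values were seen. An exact two-sided permutation test of 3 against 3 cannot give a p below 0.1, and pairs without overlap reached that value (0.14 after adjustment over the 14 pairs). On chromosome 21, the ratio of IFNAR2 to IFNGR2 was 0.652, 0.692 and 0.754 in control and 1.38, 1.21 and 1.28 in knockdown, a log2 difference of 0.88 ± 0.08 (SE). The ratio of IFNAR2 to IFNAR1 rose by less, by 0.32 ± 0.04 (SE).

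MX1 and MX2 encode dynamin-like antiviral proteins. MX1 had 10, 16 and 6 counts in control and 21, 34 and 19 in knockdown, or 0.795, 1.27 and 0.508 CPM against 1.47, 1.99 and 1.05 CPM. The groups overlapped through control replicate 2, and the log2 fold change of 0.82 ± 0.35 (SE) did not pass (edgeR adjusted p 0.0728). It passed without control replicate 2 (log2 fold change 1.22, edgeR adjusted p 0.0302) or knockdown replicate 3 (1.03, 0.0318), with no low-count filter (0.0445) and with the replicate block (0.0492, and 0.0474 with a length and GC correction added). MX2 had 2.78, 4.46 and 4.91 CPM in control and 4.47, 3.52 and 3.37 CPM in knockdown (log2 fold change -0.07, edgeR adjusted p 0.804), and its sign turned without control replicate 2 (0.01), control replicate 3 (0.08) or knockdown replicate 3 (0.00102).

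Of the remaining interferon-stimulated genes, IFI6, IFI35, SP100 and DTX3L rose. IFI6, a mitochondrial and endoplasmic reticulum protein that blocks cell death and virus replication, had 72, 70 and 68 counts in control and 129, 140 and 154 in knockdown, or 5.68 ± 0.0968 and 8.57 ± 0.404 CPM (SD, n = 3 each). The CPM of the groups did not overlap (log2 fold change 0.62 ± 0.12 SE, edgeR adjusted p 0.000462). IFI35, a partner of NMI, had 2.86, 1.75 and 1.95 CPM in control and 3.63, 3.93 and 3.70 CPM in knockdown (log2 fold change 0.81 ± 0.21 SE, edgeR adjusted p 0.0043), again without overlap. NMI itself rose by a log2 fold change of 0.72 (edgeR adjusted p 0.00267).

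SP100, a protein of nuclear bodies, had 13.3, 12.4 and 12.9 CPM in control and 16.3, 15.8 and 16.5 CPM in knockdown (log2 fold change 0.36 ± 0.08 SE, edgeR adjusted p 0.00169). DTX3L, a ubiquitin ligase that works as a pair with PARP9, had 232, 239 and 242 counts in control and 419, 422 and 476 in knockdown (log2 fold change 0.50 ± 0.08 SE, edgeR adjusted p 3.79e-05). All knockdown CPM values of both genes lay above all control values. PARP9 starts next to DTX3L on the opposite strand of chromosome 3 and overlaps its exons in the annotation. It had 7.15, 7.01 and 10.1 CPM in control and 9.35, 10.2 and 9.22 CPM in knockdown, and control replicate 3 lay inside the knockdown range. Its log2 fold change was 0.28 ± 0.13 (SE; edgeR adjusted p 0.0912), and 0.47 (0.00718) without that library.

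ADAR, the enzyme that edits double-stranded RNA and keeps it from MDA5, was at 244, 247 and 243 CPM in control and 257, 248 and 240 CPM in knockdown (log2 fold change 0.05 ± 0.03 SE, edgeR adjusted p 0.249). BST2 (tetherin) was at 16.5, 15.8 and 16.1 CPM and at 14.4, 14.6 and 15.1 CPM, lower without overlap but not past the threshold (log2 fold change -0.10, edgeR adjusted p 0.349). SAMD9 (0.49, edgeR adjusted p 0.106) and ISG20, an exonuclease (0.23, edgeR adjusted p 0.518), did not pass either. SAMD9 passed without knockdown replicate 1 (log2 fold change 0.64, edgeR adjusted p 0.0427).

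IFI27, a widely used interferon marker, had 8, 12 and 1 counts in control and 12, 15 and 7 in knockdown. Its fold change of 1.24 had an interval from 0.590-fold to 2.59-fold (edgeR adjusted p 0.678), and its sign turned without control replicate 3, the library with 1 count (-0.17). IFI44 had no read in any library, which allows at most 0.166 to 0.254 CPM per library. Among the wider set of interferon-stimulated genes, RSAD2 and XAF1 had no read either.

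Levels of different genes were compared only per transcript length, in TPM, computed here from counts per base of 1 GENCODE transcript per gene and scaled to a common total. IFITM3 stood first with 532 TPM in control, followed by IRF3 (192), IFITM2 (178), ADAR (90.1) and ISG15 (83.6). The sensors and their adaptor MAVS spread over a wide range. EIF2AK2 was at 27.6 and MAVS at 25.9 TPM, while DDX58 was at 2.36, IFIH1 at 0.556, TLR3 at 0.308 and DHX58 at 0.126 TPM in control. DDX58 thus lay at percentile 12.7 of all tested genes, and IFIH1 below it. IFIT1 and MX1 sat low too, with IFIT1 at 0.598 and MX1 at 0.752 TPM in control and at 0.573 and 1.35 TPM in knockdown.

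**Figure D4:**
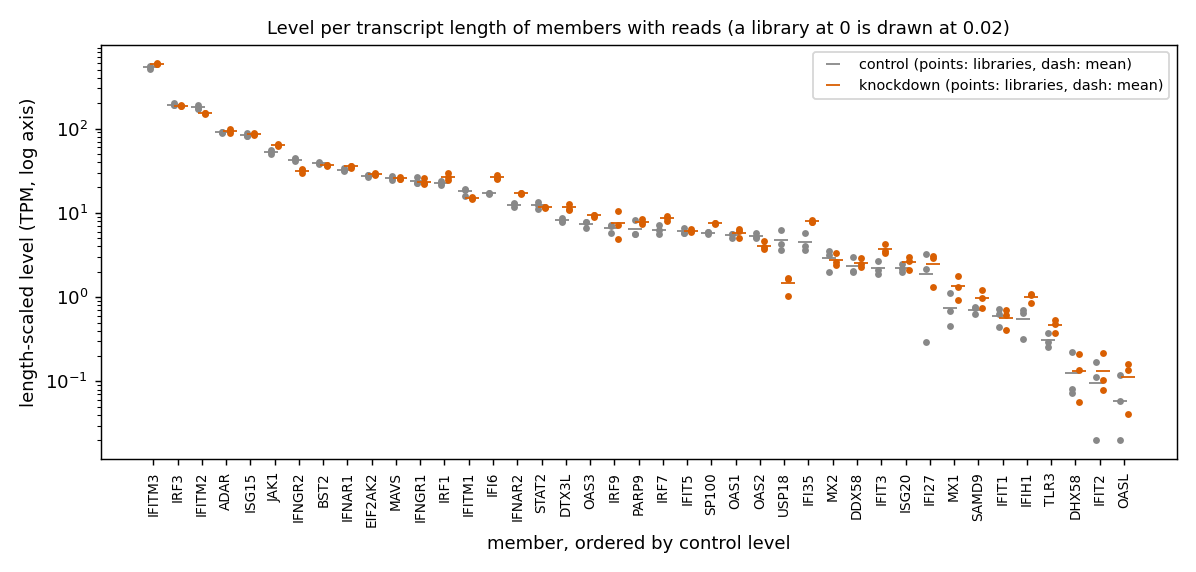
Level in TPM on a log axis for the 41 genes with reads, ordered by the control mean, in each control (grey) and knockdown (orange) library, with the mean as a dash and a library at 0 drawn at the lower edge. The order runs from IFITM3 at 532 TPM to OASL at 0.0590 TPM in control. The RNA sensors other than EIF2AK2 lie in the lower part.

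The other genes of the pathway came from lists written from general knowledge, with earlier results of these data known. Of 44 further interferon-stimulated genes 29 were tested, and 14 were higher (48.3%, background 19.3%) and 6 lower (20.7%, background 19.2%). Their median log2 fold change was 0.19. SP110 and LAMP3, not called, passed the low-count filter only through the knockdown libraries, so a difference was built into their being tested. Both count in that median. Of the remaining 27 genes 14 were higher and 6 lower. PARP12 (log2 fold change 0.92, edgeR adjusted p 1.89e-08), PARP14 (0.74, 2.6e-08) and LGALS3BP (0.37, 1.9e-07) had the smallest p-values among the higher. PARP12 rose from 16.3 ± 1.90 to 30.1 ± 0.581 CPM and PARP14 from 21.4 ± 0.734 to 34.8 ± 1.18 CPM (SD, n = 3 each). Both belong to the PARP gene family, like PARP9. HERC5 (above), PLSCR1 (-0.40, edgeR adjusted p 0.00307) and CNP (-0.15, edgeR adjusted p 0.00637) led the lower. The number called in this list was 20 in edgeR, 12 in DESeq2 and 15 to 18 when 1 library was left out. Over the whole table the same fits called 5329, 3559 and 4319 to 5256 genes.

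Among 15 genes for double-stranded RNA binding and decay, all tested, 4 were higher and 2 lower. Those called were 40% of the list, against 38.5% of all tested genes. The helicase gene DDX3X (log2 fold change 0.17), STAU1 (0.11) and the editing enzyme gene ADARB1 (0.17) were higher, and DHX36 (-0.19) was among the lower. The largest edgeR adjusted p of these named genes was 0.00963, that of ADARB1. Of the NF-kB targets, which the same sensors can induce, 11 of 13 tested were higher (84.6%, background 19.3%) and the other 2 did not pass. CCL20 and CXCL1 among the higher, and CXCL8, which did not pass, met the low-count minimum only in the knockdown libraries, where they were high, so a difference was built into their being tested. Of the remaining 10 genes 9 were higher. NFKB2 rose from 27.7 ± 1.56 to 45.6 ± 1.47 CPM, BIRC3 from 2.41 ± 0.578 to 9.54 ± 0.576 CPM and ICAM1 from 6.56 ± 1.23 to 15.2 ± 1.25 CPM (SD, n = 3 each), with a largest edgeR adjusted p of 1.32e-07, that of ICAM1. IL6, TNF and CCL5 were each below 0.1 CPM on average in both groups. The difference between this list and the interferon-stimulated genes was not tested.

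**Figure D5:**
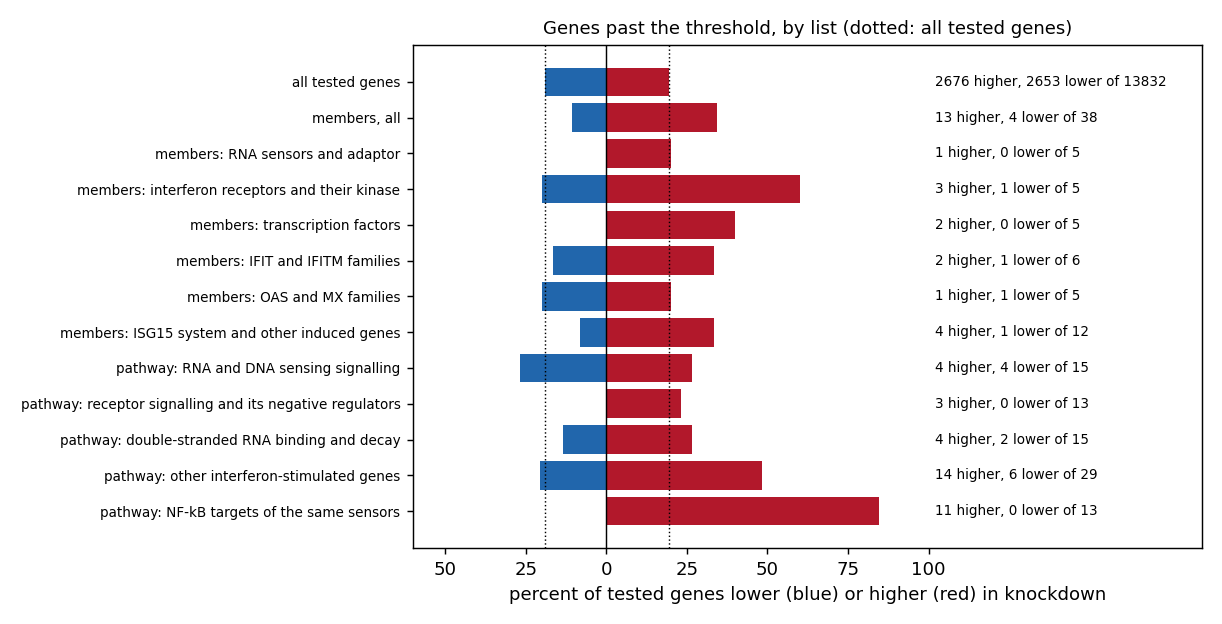
Share of tested genes past the threshold (x axis, percent), lower in knockdown to the left and higher to the right, for all tested genes, the members, their role groups and the pathway lists, with counts beside each bar. The dotted lines mark all tested genes (19.3% higher and 19.2% lower), and the NF-kB list has 11 of 13 genes higher.

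The strand setting, the counting rule and the annotation behind the counts are not given in the sources used here. In GENCODE, exons of IFNGR2 overlap TMEM50B, those of IFIT3 overlap LIPA and those of JAK1 overlap RAVER2 on the opposite strand, and IFNAR2 shares exons with the read-through gene IFNAR2-IL10RB. Reads of such partners cannot be told apart here.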

How the data were processed

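RNA-seq counts of 3 control and 3 IRS2 knockdown libraries were used. The authors deposited whole-number read counts per gene symbol, and a normalized signal that equals the deposited counts divided by 1 constant per library (0.847 to 1.25), for genes with at least 10 counts in all. The submitters' processing notes name STAR 2.6.1a, Salmon, DESeq2 and the build hg19, without their roles, so the counts may be rounded estimates. Each column was tied to a sample by its description, and 0 columns were unused.

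Counts were tested with edgeR 4.0.16 (R 4.3.3): TMM factors, filterByExpr (minimum count 10), the quasi-likelihood F-test on a model of group alone, and Benjamini-Hochberg adjustment over all 13832 tested genes at 0.05. The SE was obtained from the log2 fold change and F, and 95% intervals use the t distribution. The script was tested on simulated counts. The members, the lists and the tests were chosen with earlier results of these data known. Every member was accounted for, with full values for IRS2, the sensors and adaptor, called members and members too low to test, and from each pathway list at most 3 higher and 3 lower genes by p. TBK1, SOCS1, SOCS3, UBE2L6, UBA7, NMI, IL6, TNF, CCL5, the neighbour pairs and the printed promoter windows were chosen after their values were seen. Some genes that the rule names are not reported here. Gene locations came from GENCODE 44 lifted to GRCh37, which is the same build as hg19, and promoter sequences from RefSeq (GRCh38.p14).

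The 19 alternatives were DESeq2, upper-quartile or no scaling factors; no low-count filter, or one at a mean of 50 counts; DESeq2 1.42.0; limma 3.58.1 (voom, and log2 of the deposited signal plus 1); thinning; a replicate block; a length and GC correction, alone and with the block; a threshold of 0.01; and leaving out each library.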

Additional observations from a re-analysis of the deposited data

How the results depend on the processing

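Of 711 values of single members under the 19 alternatives, 648 changed neither sign nor call, 35 lost and 9 gained the threshold and 19 changed sign, all of the last in members that were not called. Called in every alternative that tested them were 10 of the 17 members: IFNAR2, JAK1, OAS3, IFI6, IFI35, SP100 and DTX3L, higher, and IFNGR2, IFITM2 and USP18, lower. The number of members called was 11 (8 higher) in DESeq2's Wald test and 11 (8 higher) at a threshold of 0.01, and 13 to 17 when 1 library was left out. Over the whole table DESeq2 called 3559 genes, 1637 of them lower, against 5329 and 2653 in edgeR. At a threshold of 0.01 edgeR called 3714 of the 13832 tested genes, 1924 of them higher. With 1 library left out it called 4319 to 5256 genes over the table. The sensing list had 3 called genes in DESeq2 and 3 at 0.01, and 5 to 7 with 1 library left out, and the list of further interferon-stimulated genes had 12 and 13.

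Without scaling factors the log2 fold change was -0.00307 for IFIT5 and -0.00509 for ISG15, and after thinning it was -0.029 for OAS1. Over the 6 fits without 1 library, the log2 fold changes that changed sign ranged from -0.0111 to 0.32 for DDX58, -0.054 to 0.021 for MAVS, -0.14 to 0.040 for IFNGR1, -0.12 to 0.40 for IRF9, -0.26 to 0.11 for IFIT1, -0.029 to 0.097 for IFIT5, -0.29 to 0.084 for MX2, -0.00141 to 0.068 for ISG15 and -0.17 to 0.93 for IFI27. The cause of these changes was not tested.

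Replicate numbers are shared by both groups, but after subtracting group means the libraries of replicate 1, 2 and 3 correlated at 0.04, -0.01 and -0.10, so the numbers were not taken to pair the libraries. With the replicate block 16 of the 38 tested members were called, 12 higher and 4 lower, and the log2 fold change of IRS2 was -1.39. Over the whole table that fit called 4862 of the 13832 tested genes, 2455 higher and 2407 lower. The ISRE core without its last base was found in 18 of 32 member promoters and in 8.11% of all. Coding length in place of transcript length was not run, as no protein sequences were used. The 95% intervals of IFIH1, TLR3, MX1, IFIT1, IFI27, ISG20 and USP18, with 1 to 56 counts per library, spanned over 2-fold from end to end. The parts of depth and of spread between cultures in this were not tested.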
